A study of Homo sapiens with 6 samples.

Results

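Erythroid transcription factors were described here as a set of 10 genes (GATA1, TAL1, KLF1, NFE2, LMO2, LDB1, ZFPM1, GFI1B, BCL11A and MYB), listed by name, of 62252 genes for which transcript values were summed. Messenger RNA was measured in K562 cells, a human leukemia line with red cell features, in 3 libraries without doxycycline (−Dox, labelled Control) and 3 libraries with it (+Dox, labelled PCBP1 OE). All 6 libraries came from the same engineered line. Its parent, K562flox, was grown from a single clone and was prepared for gene insertion at the AAVS1 locus. The inserted DNA lets Dox switch on PCBP1 with a Flag tag, and it also makes the cells resistant to puromycin. Dox itself and the induced Flag-PCBP1 therefore cannot be told apart as the difference between groups, and the dose and time of Dox for these libraries are not named in the sources used here. PCBP1 is a protein that binds poly-C stretches of RNA. Depth, as the sum of the deposited estimated counts, was 84177316, 80104627 and 74766040 for replicates 1, 2 and 3 of −Dox. For the same replicates of +Dox it was 70905656, 82263502 and 82449808. Nothing in the labels says that replicates were separate cultures, so p-values measure the spread between these libraries, which may be technical.

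Red cell genes are switched on by a small group of DNA-binding proteins that work together. GATA1 binds GATA sites, and the helix-loop-helix protein TAL1 binds E boxes beside them. LMO2 and LDB1 bridge these proteins and bring enhancers to promoters, while KLF1 binds CACCC boxes of globin and other red cell genes. Other members hold back or tune this program, and MYB keeps precursors dividing until they mature.

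The label of the cells was checked first. PCBP1 (chr2:70087477-70089203 of GRCh38, plus strand) was at 248, 270 and 267 CPM (counts scaled to library size with TMM factors) in −Dox replicates 1, 2 and 3 and at 1030, 936 and 1037 CPM in +Dox. All 3 induced libraries were far above the others, with a log2 fold change of 1.94 (standard error, SE, 0.055, edgeR adjusted p = 5.22e-10, from its quasi-likelihood test). The antisense gene PCBP1-AS1 covers 73.2% of the exon bases of PCBP1, and its mean was 17.2 CPM without and 15.9 CPM with Dox (edgeR adjusted p = 0.331). All 15 erythroid markers were detected well enough to be tested, and HBG2, a fetal globin gene, was the most abundant of them at 9894 TPM (an abundance per unit of length). Among markers of other lineages, 8 of 15 megakaryocyte, 6 of 13 monocyte and granulocyte, 5 of 12 lymphocyte and 6 of 11 stem and progenitor markers could be tested. PF4, SELP and FLI1 (megakaryocyte), CD8A, MS4A1 and PAX5 (lymphocyte) and FLT3 (progenitor) had 0 counts in all 6 libraries. In bulk RNA, fewer cells of a type and less RNA per cell cannot be told apart.

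Sequences are shown where the data bear on them, before the values. GATA1 can start at either of a pair of in-frame start codons, and transcripts that skip the exon with the upstream one can only use the downstream one, 83 codons later, which gives a shorter protein. The coding bases of that exon lie at chrX:48791110-48791329 (GRCh38, plus strand) and the downstream start codon, which begins at position 48791873, is shown in a window of 30 bases at chrX:48791861-48791890. GFI1B has a cassette exon of 138 bases at chr9:132989061-132989198 (plus strand), whose skipping takes away part of the zinc finger region. ATG start codons are in capitals in the GATA1 sequences, and the run of 4 C bases is in capitals in the GFI1B exon.
GATA1 upstream start: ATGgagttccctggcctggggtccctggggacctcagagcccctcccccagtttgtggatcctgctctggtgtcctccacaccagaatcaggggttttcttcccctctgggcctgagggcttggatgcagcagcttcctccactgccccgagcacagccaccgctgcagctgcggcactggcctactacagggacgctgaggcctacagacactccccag
GATA1 downstream start: ttgctcaactgtATGgaggggatcccaggg
GFI1B cassette exon: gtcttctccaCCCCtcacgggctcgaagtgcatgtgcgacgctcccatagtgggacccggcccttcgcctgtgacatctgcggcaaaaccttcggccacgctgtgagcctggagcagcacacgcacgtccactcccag

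The promoters of KLF1 (chr19:12887152-12887451, minus strand) and TAL1 (chr1:47232286-47232585, minus strand), the pair of members whose mRNA rose, are shown next from RefSeq on GRCh38.p14, from 250 bases before to 50 bases after the start. For each gene the first promoter that held the GATAA motif on either strand was picked for display. That the motif is present in the windows shown was therefore fixed by this choice. TTATC, the GATAA motif read from the other strand, is in capitals.
KLF1 promoter: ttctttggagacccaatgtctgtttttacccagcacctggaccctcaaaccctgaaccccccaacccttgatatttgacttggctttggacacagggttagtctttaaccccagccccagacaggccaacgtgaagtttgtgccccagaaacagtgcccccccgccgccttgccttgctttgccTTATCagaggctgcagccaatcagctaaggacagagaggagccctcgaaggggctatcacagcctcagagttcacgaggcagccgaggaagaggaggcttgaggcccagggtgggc
TAL1 promoter: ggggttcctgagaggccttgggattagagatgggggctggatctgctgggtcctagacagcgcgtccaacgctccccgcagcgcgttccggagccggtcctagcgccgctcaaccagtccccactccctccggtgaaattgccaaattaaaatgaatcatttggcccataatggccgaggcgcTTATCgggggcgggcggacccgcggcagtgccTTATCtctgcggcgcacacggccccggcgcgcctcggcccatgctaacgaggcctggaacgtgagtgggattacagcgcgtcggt
GATAA was searched on both strands and was found in 22.7% of 35116 RefSeq promoters of 300 bases. It was found in 3 of the 14 promoters that the table holds for 8 of the members, with 2 matches in the TAL1 promoter shown, 1 in the KLF1 promoter and 1 in a GFI1B promoter. A further TAL1 promoter in the table, at chr1:47231666-47231965, and a further GFI1B promoter held 0 matches. CACCC, on both strands, was in 9 of the 14 member promoters and in 59.9% of all promoters. The E box CANNTG, which reads the same on both strands, was in 6 of the 14 and in 68.7% of all. A match of letters is a description of the window only. NFE2 and LMO2 have no entry in the table.

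TAL1 and KLF1 mRNA rose and MYB and LMO2 mRNA fell in +Dox, and no member moved by as much as a log2 fold change of 1. All 10 members had a mean count above 10 and were tested among 21045 genes, and 4 of the 10 passed an adjusted p of 0.05 by edgeR, 2 higher and 2 lower. Over all genes tested, 3333 (15.8%) passed, 8.16% higher and 7.68% lower. The stricter limit of the study's methods, which adds an absolute log2 fold change above 1, was met by 0 of the 10 members and by 1.46% of all genes. The groups were fully separate in 7 of the 10 members (4 higher, 3 lower), beside 33.2% of all genes (17.4% higher, 15.8% lower). The median log2 fold change of the members was 0.05, and that of all genes was 0.01.

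**Figure D1:**
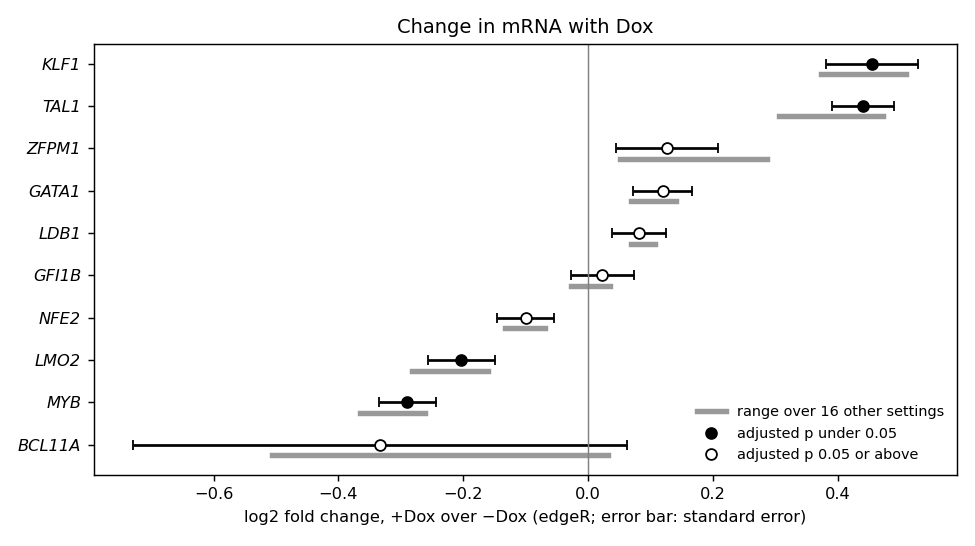
Each row is 1 gene, ordered by the edgeR log2 fold change of +Dox over −Dox (horizontal axis), with the SE as the bar and the range over 16 other settings as the grey line. Filled points mark TAL1, KLF1, MYB and LMO2, which passed an adjusted p of 0.05; the grey lines of GFI1B and BCL11A cross 0.

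Among the DNA-binding members of the core complex, TAL1 showed the smallest p. TAL1 (chr1:47216290-47232225, minus strand) was at 56.3, 56.5 and 60.2 CPM in −Dox replicates 1, 2 and 3 and at 78.7, 78.2 and 77.9 CPM in +Dox. All +Dox libraries sat close together and above all −Dox libraries. The increase was 1.36-fold (log2 fold change 0.44, SE 0.049, edgeR adjusted p = 8.34e-05). On the TPM scale TAL1 was at 13.5 ± 1.35 in −Dox and 16.9 ± 0.374 in +Dox (SD, n = 3 per group), and the log2 difference of TPM was smaller, at 0.31 with a pseudocount of 1 TPM (limma adjusted p = 0.0794). Exons of an antisense lncRNA, ENSG00000226252, cover 14.8% of the exon bases of TAL1, and this lncRNA was at 3.38 CPM without and 4.11 CPM with Dox (edgeR adjusted p = 0.239).

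GATA1 (chrX:48786540-48794311, plus strand), the central activator of the lineage, was at 157, 168 and 168 CPM in −Dox replicates 1, 2 and 3 and at 180, 173 and 183 CPM in +Dox. The groups did not overlap, but −Dox replicate 2 and +Dox replicate 2 lay only a few CPM apart. The log2 fold change of 0.12 (SE 0.047) did not pass the test (edgeR adjusted p = 0.113).

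KLF1 (chr19:12884422-12887201, minus strand), the CACCC-box activator, has 1 annotated transcript, so its counts involve no choice between transcripts. KLF1 was at 70.1, 84.2 and 83.0 CPM in −Dox replicates 1, 2 and 3 and at 116, 99.9 and 109 CPM in +Dox. The groups did not overlap, −Dox replicate 1 was the lowest library and +Dox replicate 1 the highest. The increase was 1.37-fold (log2 fold change 0.46, SE 0.074, edgeR adjusted p = 0.00121). Without each library in turn the log2 fold change lay between 0.37 and 0.51, with adjusted p values of 0.00116 to 0.0098 by edgeR.

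The bridging members of the complex had small differences of opposite sign. LMO2 (chr11:33858576-33892076, minus strand), which joins TAL1 to LDB1, was at 79.2, 88.3 and 83.1 CPM in −Dox replicates 1, 2 and 3 and at 74.6, 69.9 and 73.2 CPM in +Dox. All +Dox libraries were below all −Dox libraries, with a gap of a few CPM between −Dox replicate 1 and +Dox replicate 1. The log2 fold change was −0.20 (SE 0.054, edgeR adjusted p = 0.0219). This call was lost when −Dox replicate 2 or 3 was left out (edgeR adjusted p = 0.108 and 0.059) and when +Dox replicate 2 or 3 was (0.0867 and 0.0598), with log2 fold changes of −0.24 to −0.16 over all 6 left-out libraries. LDB1 (chr10:102106489-102120368, minus strand), whose self-association loops distant sites together, was at 148, 144 and 148 CPM in −Dox and at 158, 155 and 152 CPM in +Dox. Its groups did not overlap, and the log2 fold change of 0.08 did not pass the test (edgeR adjusted p = 0.241).

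MYB (chr6:135181308-135219173, plus strand), which keeps blood precursors dividing, was at 258, 245 and 252 CPM in −Dox replicates 1, 2 and 3 and at 198, 206 and 213 CPM in +Dox. The groups were well apart, with every +Dox library below every −Dox library. The level in +Dox was 0.818 of that in −Dox (log2 fold change −0.29, SE 0.046, edgeR adjusted p = 0.00114). Without each library in turn, the log2 fold change was −0.32 to −0.26, with adjusted p values of 0.00252 to 0.00784 by edgeR. MYB-AS1 shares 1.87% of the exon bases of MYB and stood at 0.62 CPM without and 0.373 CPM with Dox (edgeR adjusted p = 0.194).

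NFE2 (chr12:54292111-54301015, minus strand), which pairs with small MAF proteins at globin enhancers, was at 193, 194 and 194 CPM in −Dox replicates 1, 2 and 3 and at 184, 173 and 186 CPM in +Dox. The −Dox libraries were nearly equal and all above the +Dox libraries, but the log2 fold change of −0.10 (SE 0.046) did not pass the test (edgeR adjusted p = 0.171). ZFPM1 (chr16:88453280-88537031, plus strand), the cofactor of GATA1 also known as FOG1, was at 18.5, 20.9 and 22.5 CPM in −Dox and at 22.4, 20.9 and 24.4 CPM in +Dox. These groups overlapped (log2 fold change 0.13, SE 0.081, edgeR adjusted p = 0.345).

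The repressor GFI1B (chr9:132944000-132991687, plus strand), which recruits the histone demethylase KDM1A, was at 37.9, 39.9 and 39.9 CPM in −Dox replicates 1, 2 and 3 and at 39.5, 40.3 and 39.8 CPM in +Dox. The groups overlapped, and the log2 fold change was 0.02 (SE 0.051, edgeR adjusted p = 0.825), with a sign that turned in 3 of 16 other settings. BCL11A (chr2:60450520-60554467, minus strand), the repressor of fetal globin genes, had 31, 51 and 25 counts in −Dox replicates 1, 2 and 3 and 24, 32 and 29 counts in +Dox. Over all libraries, 95.3% of these counts were assigned to 1 transcript with only 390 annotated coding bases. At this depth no difference was detectable (log2 fold change −0.33, SE 0.395, edgeR adjusted p = 0.645), and −Dox replicate 2 alone was high. Without that library, the log2 fold change was 0.03.

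Scaled for length, the members spanned a wide range of levels. In −Dox, GATA1 (124 ± 3.20 TPM) and NFE2 (121 ± 4.32 TPM) were the most abundant, and their ranges overlapped. Below them came MYB (92.6 ± 6.01 TPM), LMO2 (69.4 ± 1.66 TPM), LDB1 (58.6 ± 3.99 TPM), KLF1 (50.7 ± 2.61 TPM), GFI1B (22.3 ± 0.478 TPM), TAL1 (13.5 ± 1.35 TPM), ZFPM1 (5.13 ± 0.567 TPM) and BCL11A (0.0945 ± 0.0301 TPM), each apart from its neighbour (SD, n = 3 throughout). In +Dox the order of levels differed in the middle. KLF1 stood at the fourth place with 68.5 ± 2.16 TPM, its range overlapping that of MYB at 71.9 ± 4.02 TPM, and LMO2 stood at the sixth place with 57.0 ± 0.804 TPM, below LDB1 at 61.7 ± 2.43 TPM. GATA1 (130 ± 1.65 TPM) and NFE2 (110 ± 0.646 TPM) no longer overlapped. A transcript of LMO2 of 390 bases, with no annotated coding bases, held 26.5% of its TPM but 3.05% of its counts over all libraries. The place of LMO2 above LDB1 in −Dox depends on whether that transcript is counted.

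**Figure D2:**
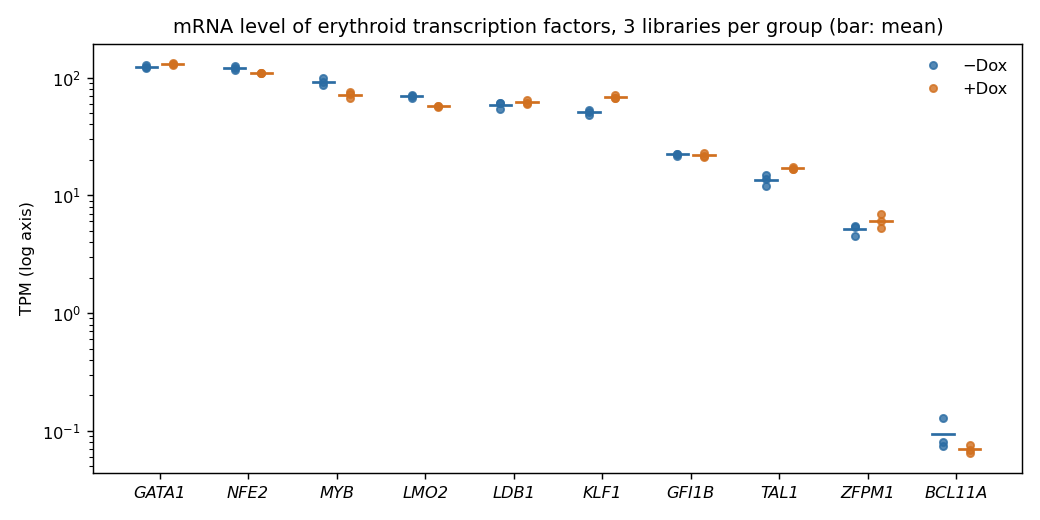
The vertical axis gives TPM on a log axis and each point is 1 library, with −Dox in blue, +Dox in orange and the group mean as a bar. GATA1 and NFE2 lie above 100 TPM in all libraries, and BCL11A lies near 0.1 TPM.

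The 3 genes whose CPM followed TAL1 most closely over the 6 libraries, of 9288 other genes with a mean of at least 10 CPM, were LTBP1 (Pearson's r = 0.999), RAB6B (r = 0.998) and H2BC15 (r = 0.998). All 3 were higher in +Dox. As the 6 libraries form separate groups, such values are common, and 424 genes (4.57%) had r above 0.95 with TAL1.

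Transcript shares were compared for forms, each being the transcripts of a gene with the same coding bases, and the transcripts of a gene with no annotated coding bases were taken as 1 further form. In 7 of the members 24 forms had a mean share of 5% to 95%, of which 19 were coding and 5 had no coding bases, and 0 of the 24 passed the test (smallest limma adjusted p = 0.609 on the log2 ratio of a form to the rest of its gene). An unadjusted p under 0.05 was seen for 3 of the 24 by limma, and over all 27710 forms tested 0.0902% passed and 7.78% had an unadjusted p under 0.05. The shares of the groups did not overlap in 6 of the 24 member forms (25%), compared with 14.5% of all forms. In simulated data this test called 0% of forms with a log2 ratio change of 1 and 43.5% of those with a change of 2, so shifts of the size seen here were below what it can call.

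The short form of GATA1, which starts at the downstream ATG shown above and encodes 330 codons, took 27.7%, 25.2% and 28.9% of GATA1 TPM in −Dox replicates 1, 2 and 3 and 23.6%, 19.0% and 20.4% in +Dox. Every +Dox library was below every −Dox library, with a log2 ratio of −0.50 (unadjusted p = 0.0341, limma adjusted p = 0.642). The 413-codon form, the full-length protein, took 60.8%, 64.2% and 58.9% in −Dox and 64.6%, 67.0% and 68.3% in +Dox. It was higher in +Dox without overlap, by 5.36 percentage points (limma adjusted p = 0.697). Forms of 418 and 343 codons had smaller shares, at 6.82% ± 0.973 and 4.65% ± 0.511 in −Dox and 6.84% ± 0.194 and 5.52% ± 1.34 in +Dox (SD, n = 3), and overlapped.

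Summed over the 3 transcripts with and the 3 without the exon that holds the upstream ATG, inclusion of that exon was 68.3%, 69.9% and 66.1% of GATA1 TPM in −Dox replicates 1, 2 and 3 and 71.2%, 74.1% and 75.2% in +Dox. All +Dox libraries were above all −Dox libraries, with means of 68.1% ± 1.91 and 73.5% ± 2.08 (SD, n = 3; two-sided exact permutation p = 0.1, the lowest possible with 3 against 3). The TPM of transcripts with the exon was 84.5 ± 0.211 in −Dox and 95.7 ± 3.59 in +Dox, while the TPM of transcripts without it was 39.6 ± 3.41 and 34.5 ± 2.42 (SD, n = 3). From estimated counts in place of TPM, inclusion was 72.2% and 77.1%, again without overlap.

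The GFI1B and MYB exons below were looked at after the shares of their forms had been seen, and they are given with no test. The GFI1B cassette exon was included in 72.3%, 76.5% and 83.9% of TPM in −Dox replicates 1, 2 and 3 and in 86.3%, 87.1% and 86.5% in +Dox. The −Dox libraries were widely spread (77.6% ± 5.91) and the +Dox libraries were not (86.6% ± 0.442; SD, n = 3), and the groups did not overlap. TPM of the skipped form, of 284 codons, was 5.002 ± 1.33 in −Dox and 2.93 ± 0.0384 in +Dox, while GFI1B as a whole was at 22.3 TPM in −Dox and 21.9 TPM in +Dox. The share of this form was among those tested above and did not pass (log2 ratio −0.85, unadjusted p = 0.0231, limma adjusted p = 0.609). Inclusion of a MYB exon of 363 bases (chr6:135196961-135197323) was 12.8%, 10.7% and 13.1% in −Dox and 13.1%, 15.2% and 13.2% in +Dox, so the groups nearly touched, and they overlapped when estimated counts were used. The 277-codon form of MYB, annotated without a complete 5′ end, took 7.495% ± 1.44 in −Dox and 5.02% ± 0.288 in +Dox (SD, n = 3; limma adjusted p = 0.635).

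**Figure D3:**
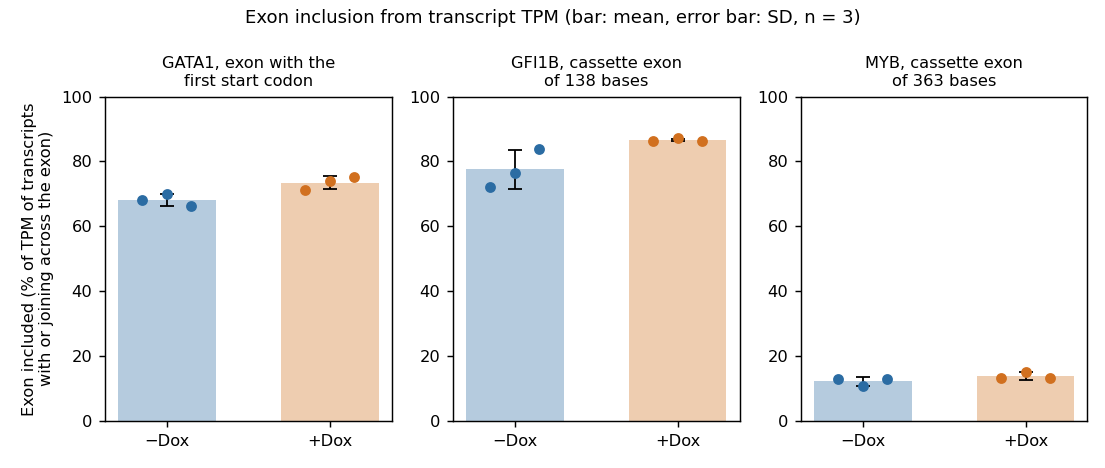
The vertical axis gives the percent of TPM on transcripts with the exon, with bars for the mean, error bars for the SD and points for the 3 libraries of each group. The GATA1 exon stands at means of 68.1% and 73.5% and the GFI1B exon at 77.6% and 86.6% in −Dox and +Dox, and the MYB exon stays below 16% in each library.

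In NFE2 and LDB1 the start sites and forms differed by a few percentage points. The upstream start of NFE2 took 65.4% ± 1.19 of its TPM in −Dox and 63.4% ± 0.906 in +Dox, and the upstream starts of LDB1 took 50.5% ± 1.06 and 48.1% ± 0.734 (SD, n = 3). In both cases every +Dox library was below every −Dox library, though by a narrow margin. The 375-codon form of LDB1 was at 45.1% and 46.3%, and the 411-codon form at 35.4% and 33.0%, in −Dox and +Dox. The 3 start groups of LMO2 overlapped between −Dox and +Dox. The coding form of TAL1 took 83.7% ± 4.76 in −Dox and 88.9% ± 2.32 in +Dox, and these ranges overlapped (limma adjusted p = 0.7). The full-length form of ZFPM1, of 1006 codons, took 70.7% ± 6.89 in −Dox and 63.4% ± 10.1 in +Dox, and its retained intron transcript took 16.2% ± 3.55 and 23.3% ± 12.02 (SD, n = 3). These groups overlapped, and +Dox replicate 1 alone held the highest share of the retained intron, 36.95% (limma adjusted p = 0.81 and 0.817). The retained intron transcript is only 497 bases long and had 13.66 to 50.05 estimated counts per library. Over the 6 libraries it held 1.38% of ZFPM1 counts and the full-length transcript 96.4%. These TPM shares therefore rest on few reads scaled by a short length.

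Partners of the members were read from lists that were chosen with earlier results of these data known. Over 50 regulators in 5 lists, 4 passed the test as higher and 9 as lower in +Dox, or 26%, beside 15.8% of all genes tested. These 13 calls became 6 without −Dox replicate 2 (12%, beside 10.9% of all genes). They became 7 without −Dox replicate 3 or +Dox replicate 3 (14%, beside 11.3% and 10.9%). Without +Dox replicate 2 they became 8 (16%, beside 11.8%), and without +Dox replicate 1 they became 9 (18%, beside 11.6%). The count rose to 16 without −Dox replicate 1 (32%, beside 15.9%) and to 17 with DESeq2 (34%, beside 18.7%). Of 11 partners of the core complex, 1 was higher and 4 were lower (45.5%), with a median log2 fold change of −0.11. GATA2, the GATA factor of earlier precursors, was at 94.4, 103 and 108 CPM in −Dox replicates 1, 2 and 3 and at 79.3, 78.7 and 80.6 CPM in +Dox. The groups did not overlap (log2 fold change −0.36, SE 0.055, edgeR adjusted p = 0.000866). RUNX1, a factor of blood stem cells and megakaryocytes, fell by 0.36 on the log2 scale (adjusted p = 0.00969), and CBFA2T3, a corepressor that binds the TAL1 complex, fell by 0.26 (adjusted p = 0.0114), both by edgeR. SSBP4 fell by 0.26 (adjusted p = 0.00912), while SSBP2 rose by 0.18 (adjusted p = 0.0481), both by edgeR and both encoding partners that stabilize LDB1. The calls in this list dropped from 5 to 3 without −Dox replicate 3 and to 2 without +Dox replicate 3, and SSBP2 lost its call without replicate 2 or 3 of either group (edgeR adjusted p of 0.132 to 0.171) and turned to −0.03 when only protein-coding transcripts were summed. With a transcript length offset, RUNX1 was at −0.65 and SSBP2 at 0.35 (edgeR adjusted p = 0.00136 and 0.0212).

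Of 8 partners and relatives of NFE2, 1 was higher and 2 were lower (37.5%, beside 15.8% of all genes). BACH1, a heme-sensing repressor that competes for the same sites as NFE2, was at 113, 108 and 101 CPM in −Dox replicates 1, 2 and 3 and at 136, 146 and 151 CPM in +Dox. All +Dox libraries were higher, by 1.35-fold (log2 fold change 0.43, SE 0.056, edgeR adjusted p = 0.000265). The small MAF genes MAFF (log2 fold change −0.42, adjusted p = 0.0164) and MAFK (−0.36, adjusted p = 0.0171) fell by edgeR, and MAFG did not pass (−0.04, adjusted p = 0.657). NFE2L2, the most abundant gene of the list on the TPM scale, had a log2 fold change of −0.14 (edgeR adjusted p = 0.0994). Without −Dox replicate 2, 1 of these 3 calls was left (BACH1); MAFK also lost its call without −Dox replicate 3 or +Dox replicate 3, and MAFF without +Dox replicate 2. The count was also 1 with a transcript length offset, and by limma on TPM with a pseudocount of 1 and 0.1 it was 1 and 0, with BACH1 at limma adjusted p values of 0.114 and 0.183.

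Corepressors that work with GFI1B, ZFPM1 and BCL11A numbered 16, with 1 higher and 2 lower and a median log2 fold change of −0.01. The share called, 18.8%, was near that of all genes tested (15.8%). CHD4, the remodelling ATPase of the NuRD complex, was at 232, 234 and 241 CPM in −Dox replicates 1, 2 and 3 and at 195, 205 and 204 CPM in +Dox. It was lower in every +Dox library (log2 fold change −0.23, edgeR adjusted p = 0.00361). RCOR3, a CoREST family gene, rose by 0.19 and MTA1, a NuRD subunit, fell by 0.19 on the log2 scale (adjusted p = 0.0353 and 0.0407 by edgeR). The count of 3 fell to 1 when any library other than −Dox replicate 1 was left out. It was 0 with a transcript length offset and by limma on TPM with either pseudocount, where CHD4 had adjusted p values of 0.21 (edgeR), 0.304 and 0.374 (limma).

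Of 11 other regulators of globin genes 18.2% were called, also near the share of all genes. LIN28B, an RNA-binding protein of fetal type cells, was lower (log2 fold change −0.21, adjusted p = 0.0174) and KLF3, a repressor that binds CACCC boxes, was higher (0.20, adjusted p = 0.0224), both by edgeR. This count of 2 fell to 0 without −Dox replicate 2 or +Dox replicate 1, and to 1 without −Dox replicate 3 or +Dox replicate 2. Of 4 MYB relatives and coactivators 0 passed by edgeR, and 1 had an unadjusted p under 0.05, MYBL2 with a log2 fold change of 0.16 (adjusted p = 0.0523). DESeq2 called 1 of the 4, and so did edgeR when at least 10 counts were asked of every library.

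Genes that the members are known to drive were read last. Of 28 such effector genes of red cells, 27 were tested, and 18 rose and 2 fell (74.1%), with a median log2 fold change of 0.38. Of all genes tested, 15.8% passed (8.16% higher, 7.68% lower), with a median of 0.01. The list was chosen with earlier results of these data known, so the difference between these shares is a description and not an independent test. TSPO2, with at most 18 counts in a library, was not tested. The heme synthesis enzymes ALAS2 and PPOX rose by 1.53 and 1.24, and the blood group protein KEL by 0.93, on the log2 scale (adjusted p = 2.51e-08, 1.05e-07 and 5.38e-07 by edgeR). The erythropoietin receptor EPOR, known as a GATA1 target, was at 15.7, 17.02 and 16.1 CPM in −Dox replicates 1, 2 and 3 and at 32.6, 30.5 and 32.2 CPM in +Dox. It rose 1.96-fold without overlap (edgeR adjusted p = 6.52e-07). The 2 genes that fell were the embryonic globin gene HBZ (log2 fold change −0.40, adjusted p = 0.00213) and BCL2L1, a survival gene (−0.27, adjusted p = 0.00846), both by edgeR. Of the 7 tested that did not pass, 5 were globin genes, with log2 fold changes of −0.22 for HBA2, −0.13 for HBE1, −0.12 for HBG1, 0.02 for HBG2 and 0.00135 for HBA1 (edgeR adjusted p of 0.107 to 0.994). HBA1 and HBA2, and HBG1 and HBG2, are near-identical copies, so the split of reads within each pair is uncertain. TFRC, the transferrin receptor and an erythroid marker outside the effector list, fell by 0.34 on the log2 scale (edgeR adjusted p = 0.000856).

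**Figure D4:**
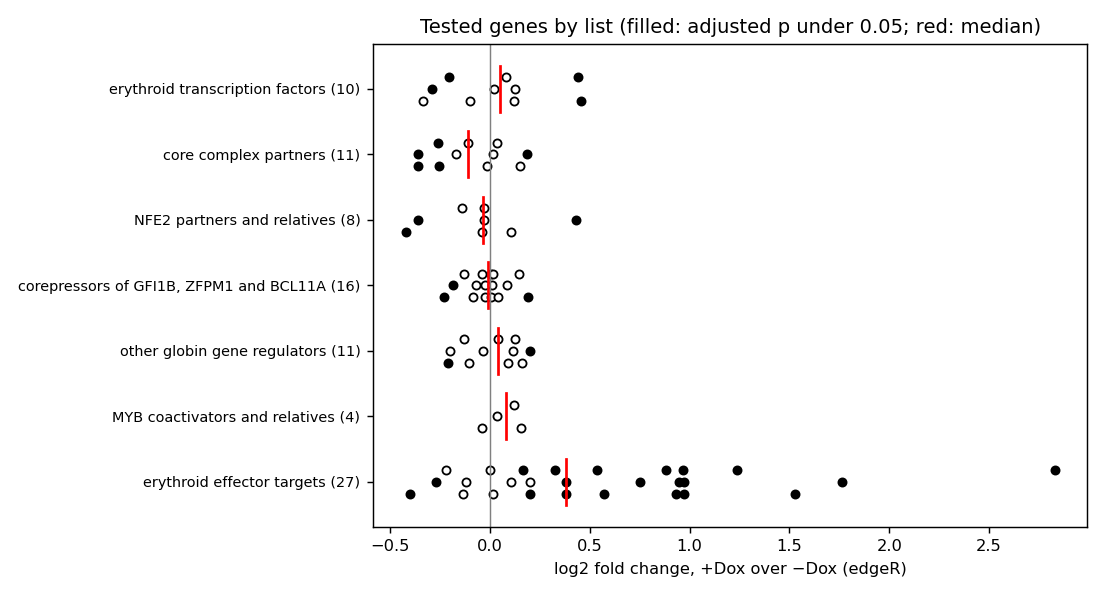
The horizontal axis gives the edgeR log2 fold change of +Dox over −Dox, each point is a tested gene, filled points passed an adjusted p of 0.05 and the red line is the median of the list. The effector genes, a list chosen with earlier results of these data known, have a median of 0.38 with points up to 2.83. The members lie between −0.33 and 0.46. The point at 2.83 is EPB42, with means of only 0.252 CPM in −Dox and 1.79 CPM in +Dox. The point at −0.33 is BCL11A, with means of 0.452 and 0.358 CPM.

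Markers of other cell types were read beside these changes. Of the monocyte and granulocyte list, with a summed level of 110, 125 and 148 TPM in −Dox replicates 1, 2 and 3 and 86.1, 89.8 and 101 TPM in +Dox, its most abundant gene LYZ, which held most of the sum, fell (log2 fold change −0.47, edgeR adjusted p = 0.00837; 0.0874 and 0.145 by limma on TPM with a pseudocount of 1 and 0.1). It was the only call of the 6 tested (16.7%, near the 15.8% of all genes), and the median log2 fold change of the list was −0.12. SPI1 (−0.23) and FCGR3A (−0.81) had log2 fold changes of the same sign as LYZ that did not pass (edgeR adjusted p = 0.131 and 0.139). ITGAM (0.35) and CEBPA (0.36) had the other sign and did not pass either. The groups were fully separate in 2 of the 6 tested genes of the list, both lower in +Dox. This share was near that of all genes, 33.2%. The megakaryocyte list summed to 70.7, 75.3 and 86.0 TPM in −Dox and 73.6, 74.7 and 78.5 TPM in +Dox, with GP1BB the most abundant. Within it TUBB1 rose by 0.95, GP6 fell by 0.75 and RUNX1 fell as given above (adjusted p = 4.81e-05 and 0.000186 for the first pair by edgeR). Lymphocyte markers summed to between 36.6 and 60.4 TPM, mostly CD3D, and the 5 tested had edgeR adjusted p values of 0.421 or more. Stem and progenitor markers summed to between 16.7 and 20.5 TPM, with MECOM the most abundant. Only KIT, the stem cell factor receptor, passed of the 6 tested (16.7%, also near the share of all genes). Its log2 fold change was −0.45 (edgeR adjusted p = 0.042), a call lost when any of 5 libraries was left out (all but −Dox replicate 1). The log2 fold change of KIT was −0.99 with protein-coding transcripts only and −0.20 by limma on log2(TPM + 1). Their part in the changes of the members was not tested.

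Runs of 4 or more C, the kind of stretch that PCBP1 can bind, were counted on the reference transcript of each member, on the RNA strand only. ZFPM1 held 15.5 per kilobase, GATA1 13.0 and LDB1 11.3, compared with a median of 3.52 over 19006 genes, while MYB held 3.26. TAL1 (6.25) and KLF1 (6.82), which rose, and LMO2 (7.21), which fell, were between these. These counts describe letters, and binding was not measured in these libraries.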

How the data were processed

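K562 mRNA of 3 −Dox and 3 +Dox libraries was sequenced as paired ends of polyA RNA and quantified per transcript by the authors with Salmon 1.10.2 (submitters' processing notes, which name hg38). The authors deposited an estimated count (expected count, not scaled) and a TPM value for each of 252045 transcripts. The index, strand and bias settings of Salmon are not given in the sources used here. Whether reads from exon bases shared by a gene and an antisense gene were assigned by strand is therefore not known.

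Transcripts were matched to GENCODE 44 on GRCh38 (433 did not match) and estimated counts were summed per gene and rounded. The test was edgeR 4.0.16, on genes averaging more than 10 counts (quasi-likelihood, TMM, two-sided, Benjamini-Hochberg over 21045 genes) in R 4.3.3; DESeq2, which the study used, was an alternative (DESeq2 1.42.0). CPM values are scaled by TMM, and standard errors were taken as log2 fold change over the root of F. Coding form shares were tested with limma 3.58.1 on log2 ratios with a pseudocount of 0.1 TPM, for forms of 5% to 95% in genes of at least 1 TPM. On simulated data made from these libraries edgeR called 73% of genes changed by a log2 value of 0.5 and 90% of those changed by 1, of 20683 genes, and 7 of 20483 unchanged genes.

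The genes named are the 10 members, PCBP1, up to 5 genes of each list by p, genes at 0 and the 3 genes closest to TAL1 by correlation. Not every gene under this rule is reported here. TSPO2, HBZ, BCL2L1, EPB42, the other globin genes, TFRC, GP1BB, the overlapping genes, and the GFI1B and MYB exons do not fall under this rule and were chosen once their values had been seen. The members and lists were chosen with earlier results of these data known. Promoters are from RefSeq and other sequences from GENCODE 44. Tables were made with Python 3.11.15, pandas 2.3.3, numpy 2.4.6 and scipy 1.17.1, and figures with matplotlib 3.10.9.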

Additional observations from a re-analysis of the deposited data

How the results depend on the processing

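PCBP1 kept its direction and its call in 16 of 16 other settings (log2 fold change 1.90 to 1.98). The count of 4 members called became 0 by limma on log2(TPM + 0.1) and was 3 to 4 when a library was left out. On that scale TAL1, KLF1, MYB and LMO2 had adjusted p values of 0.146, 0.0587, 0.102 and 0.0951, with the directions kept, and far fewer genes were called in all. The log2 fold change of GFI1B turned to −0.0266 and −0.0277 by limma with a pseudocount of 1 and 0.1 TPM, and lay between −0.00199 (without −Dox replicate 1) and 0.0357 with a library left out. That of BCL11A lay between −0.507 and 0.0314 (without −Dox replicate 2), and that of SSBP2 turned to −0.0276 with protein-coding transcripts only. Genes called over all genes numbered 1882 with a transcript length offset, 1088 by limma on log2(TPM + 1) and 338 on log2(TPM + 0.1), and 2288 to 3338 with a library left out, compared with 3333. With the absolute log2 fold change above 1, 308 genes became 515 with all genes of any count, 172 with protein-coding transcripts only, and 54 and 112 by limma with a pseudocount of 1 and 0.1 TPM. By limma with a pseudocount of 1 and 0.1 TPM, the log2 fold change of RUNX1 was −0.62 and −0.68, SSBP2 0.31 and 0.32, KLF3 0.12 and 0.13, and GATA1 0.07 and 0.07, and ZFPM1 spanned 0.05 to 0.29 over all settings. Genes of the lists numbered 33, with 16 and 11 by limma with a pseudocount of 1 and 0.1 TPM, and 25 to 36 with a library left out. The 13 regulators called became 8 with a transcript length offset or the replicate block, and 2 and 0 by limma with these pseudocounts. By limma, core complex partners had 1 and 0 calls (GATA2 at limma adjusted p values of 0.0598 and 0.126), other globin regulators 0 and 0, and effector genes 14 and 11. Coding forms called went from 25 to 4 with a pseudocount of 1 TPM, and lay between 14 (without +Dox replicate 2) and 27 with a library left out. The causes were not tested. A trend of the spread on the count of a form was added after seeing the data, and no member form was called in any of 12 settings.

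The replicate numbers did not pair the libraries: same-numbered libraries had correlations of deviations of −0.109, −0.244 and 0.0325, and not every library correlated best with its own number. With the replicate number as a block, 2490 genes, 3 members (LMO2 at an adjusted p of 0.0658 by edgeR) and 0 coding forms were called. Depth limited BCL11A most, with 24 to 51 counts per library.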
